A study of Mus musculus with 28 samples.

Results

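The autophagy core genes described here are *Ulk1*, *Rb1cc1*, *Atg13*, *Becn1*, *Pik3c3*, *Atg5*, *Atg7*, *Atg16l1*, *Map1lc3b* and *Sqstm1*. They are 10 of the 48587 gene symbols of the count table and were chosen by symbol, as the usual representatives of each step of autophagy. All 10 had enough reads to be among the 15298 genes tested. Their expression was measured by RNA-seq in hippocampal microglia from 28 male mice on a C57BL/6J background at an age of 16 weeks, 1 library per mouse. WT mice are the non-transgenic littermates of heterozygous 5xFAD mice, a model of Alzheimer's disease in which a neuronal Thy-1 promoter drives human APP and PS1 with familial mutations. Under SPF conditions there were 5 WT and 3 5xFAD mice, under GF conditions 4 WT and 5 5xFAD mice, and under ABX treatment 5 WT and 6 5xFAD mice. SPF mice were housed free of specific pathogens, GF mice were germ-free, and ABX mice drank vancomycin, cefoxitin, gentamicin and metronidazole for 8 weeks. The GF mice came from another facility (Bern) than the SPF and ABX mice (Freiburg), so germ-free housing cannot be told apart from their source. Mouse FAD_GF_201 has 5xFAD in its title and genotype label but WT in its description, and is counted here with the 5xFAD animals. Its summed level of 7 microglial markers was 36597 CPM, against 29074 to 30286 CPM in the other 4 GF 5xFAD mice, and it had the lowest *Map1lc3b* (145 CPM) and *Becn1* (101 CPM) of that group. Without it the calls described below for the 10 genes in GF mice all held, and *Sqstm1* also passed in GF 5xFAD against GF WT mice (adjusted p = 0.0391, edgeR).

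Autophagy encloses cytoplasmic material in a double membrane and delivers it to lysosomes. The kinase ULK1 with its partners ATG13 and FIP200 (encoded by *Rb1cc1*) starts the process, and the lipid kinase VPS34 (*Pik3c3*) with Beclin 1 (*Becn1*) marks the membrane from which the autophagosome grows. ATG7, ATG5 and ATG16L1 then help to attach LC3 proteins such as LC3B (*Map1lc3b*) to that membrane, and p62 (*Sqstm1*) links ubiquitin-tagged cargo to LC3. In microglia the same conjugation machinery also acts on phagosomes, and p62 is both a cargo receptor and degraded with its cargo. The values below are mRNA levels and do not measure autophagic flux.

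Reads counted on genes ranged from 14441610 to 29977395 per library, and all 54 replicate pairs differed beyond counting noise (lowest chi-square per degree of freedom 6.61). *P2ry12*, *Tmem119*, *Cx3cr1* and *Csf1r*, which mark microglia, were high in every library, with *Csf1r* between 11761 and 16566 CPM. The summed level of 7 microglial markers lay between 40210 and 46608 CPM in WT mice and between 29074 and 37817 CPM in 5xFAD mice, so it moved with genotype without overlap. In such bulk samples fewer cells of a type and less RNA per cell cannot be told apart. The cells had been sorted as CD11b+CD45low, and a dump gate that included Ly6G and Ly6C, which mark neutrophils and monocytes, was used to remove other cells. The summed level of 5 neutrophil markers was at most 0.285 CPM in the other libraries, but 39.8 to 128 CPM in the 3 SPF 5xFAD mice and 68.2 CPM in mouse FAD_ABX_1151. These 4 libraries also share a numbering style in their descriptions. All SPF WT and ABX WT libraries share another style, and all GF and the other 5 ABX 5xFAD libraries share yet another. Whether these styles mark library batches is not stated. They cannot be told apart from genotype in SPF and in ABX mice, on which the average genotype effect also rests. Nor can they be told apart from housing when GF is compared with SPF mice or, in WT mice, with ABX mice. Among 5xFAD mice, ABX and SPF libraries also differ in style, except for FAD_ABX_1151. The interactions of genotype and housing rest on genotype effects in SPF or ABX mice, so style cannot be told apart from them either. The genotype comparison in GF mice lies within a single style. The summed level of 5 border-associated macrophage markers was 3.74 to 5.64 CPM in ABX WT and 26.1 to 174 CPM in ABX 5xFAD mice, and 3.40 to 8.09 against 12.9 to 21.8 CPM in SPF mice, whereas GF WT (10.5 to 32.9 CPM) and GF 5xFAD mice (8.04 to 50.8 CPM) overlapped. GF WT mice thus lay above SPF WT and ABX WT mice in this sum as well. That of 3 monocyte markers also separated the genotypes in ABX mice (2.08 to 9.05 against 10.3 to 51.9 CPM) and narrowly in SPF mice (6.09 to 8.42 against 8.76 to 9.31 CPM). The 4 endothelial markers were lower without overlap in GF 5xFAD mice (8.12 to 21.4 CPM, against 27.4 to 35.3 CPM in GF WT mice) and in SPF 5xFAD mice (23.2 to 29.2 against 30.6 to 43.1 CPM), and 5 astrocyte markers were higher without overlap in GF 5xFAD mice (2.72 to 11.4 against 0.680 to 2.66 CPM). The part of these differences in the results below was not tested, except where a value without the mice concerned is given.

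Promoter sequences of RefSeq (GRCm38.p6) were found for 6 of the 10 genes: *Ulk1*, *Atg13*, *Atg5*, *Atg7*, *Map1lc3b* and *Sqstm1*. They are shown for *Atg7*, *Map1lc3b* and *Sqstm1*, whose mRNA was higher in 5xFAD mice (below), and for *Atg5*, which was not called but carries the same motif as *Atg7*. TFEB and related factors, known regulators of lysosomal and autophagy genes, bind an E-box with the core CACGTG, which is set in capitals. This palindromic core was searched on both strands in the 250 bases before each start site. It was found in *Atg7*, 132 bases before the start, and in *Atg5*, 14 bases before it, and in 6.02% of the 32851 windows of this length. Only the longest stretch of each window outside annotated exons of GENCODE M21 is shown.
Atg7 (chr6:114670846-114671095, + strand): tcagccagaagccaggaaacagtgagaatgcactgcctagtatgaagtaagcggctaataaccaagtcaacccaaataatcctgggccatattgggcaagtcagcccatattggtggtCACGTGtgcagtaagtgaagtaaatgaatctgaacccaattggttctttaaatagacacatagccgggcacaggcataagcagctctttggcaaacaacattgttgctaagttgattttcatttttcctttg
Atg5 (chr10:44268089-44268338, + strand): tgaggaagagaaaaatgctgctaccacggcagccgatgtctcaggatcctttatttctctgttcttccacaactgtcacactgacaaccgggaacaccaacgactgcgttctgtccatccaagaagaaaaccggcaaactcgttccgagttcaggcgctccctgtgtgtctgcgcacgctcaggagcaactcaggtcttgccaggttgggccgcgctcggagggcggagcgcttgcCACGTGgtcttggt
Map1lc3b (chr8:121590188-121590360, + strand): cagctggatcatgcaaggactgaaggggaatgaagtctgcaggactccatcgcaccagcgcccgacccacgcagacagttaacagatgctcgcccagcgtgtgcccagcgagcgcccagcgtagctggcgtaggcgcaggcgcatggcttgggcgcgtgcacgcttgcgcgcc
Sqstm1 (chr11:50210828-50210889, - strand): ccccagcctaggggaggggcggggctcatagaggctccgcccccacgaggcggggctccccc
The *Atg7* window lies inside the gene as GENCODE M21 draws it, before a start site within the gene. The core of the antioxidant response element (TGACNNNGC, either strand), which NRF2 binds, was found only in *Atg13* among the 6 genes, 242 bases before the start, and in 10.2% of all windows. The presence or absence of these letters is a description and shows no binding.

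All 10 genes were well expressed. Per kilobase of exon, *Sqstm1* had the highest mean level over the 28 mice with 74.2 CPM per kb, followed by *Atg5* with 39.6, *Map1lc3b* with 16.6 and *Becn1* with 12.4 CPM per kb. *Rb1cc1* had the lowest, with 4.78 CPM per kb. In units of CPM, which compare the same gene between mice, the spread among mice of a group (coefficient of variation) ranged from 8.64% for *Map1lc3b* to 18.4% for *Ulk1*. *Map1lc3b* was therefore the gene whose differences were measured most precisely.

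**Figure D1:**
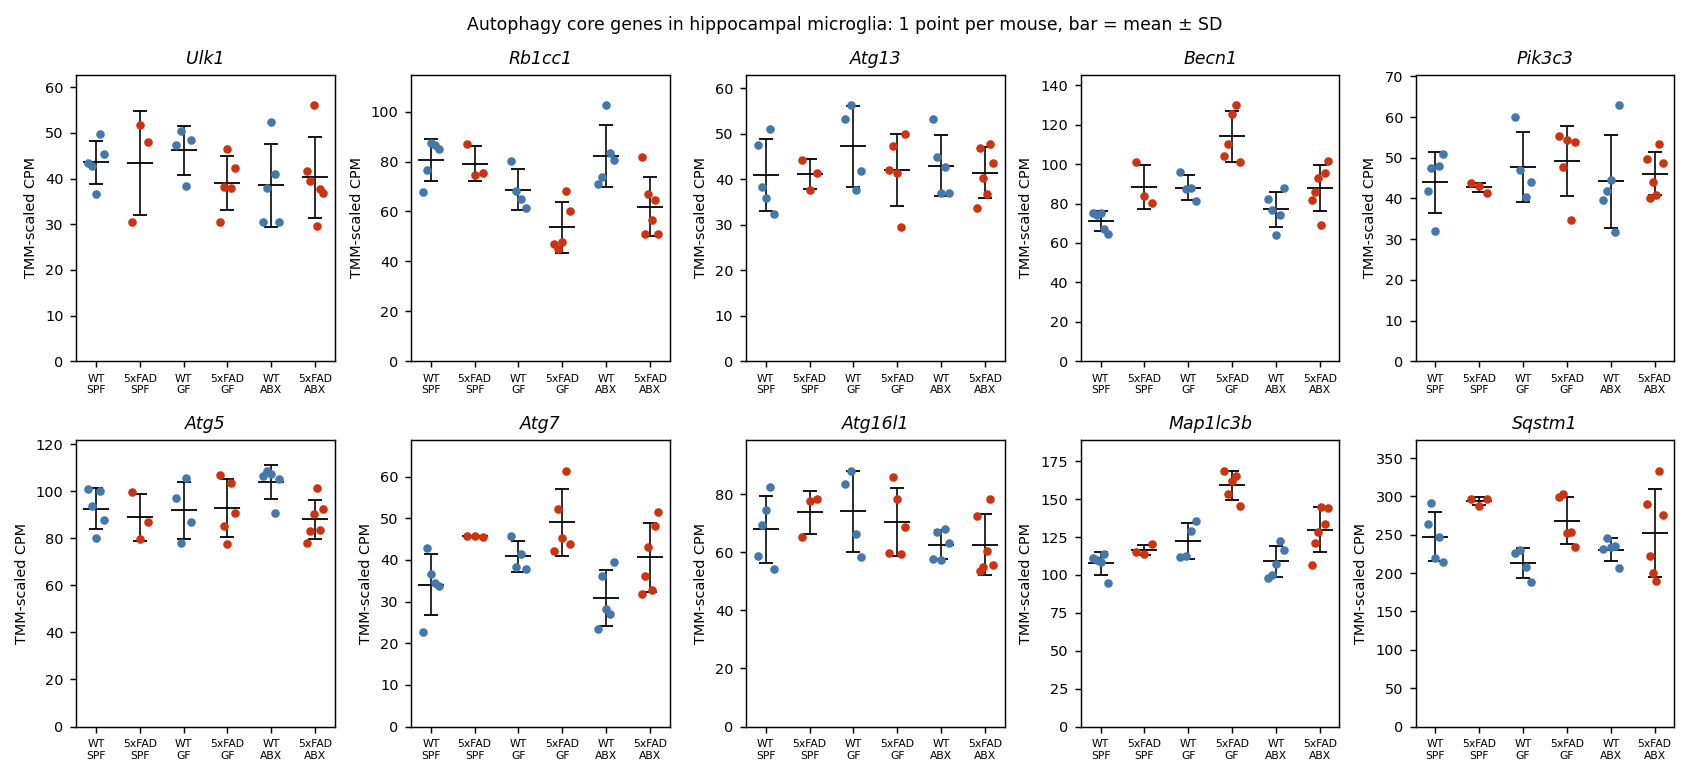
TMM-scaled CPM (y axis, from 0) of each gene in each of the 6 groups (x axis); each point is 1 mouse (blue, WT; red, 5xFAD) and the bars give the mean ± SD of 3 to 6 mice. *Map1lc3b* and *Becn1* stand highest in GF 5xFAD mice, at 145 to 169 and 101 to 129.8 CPM, and *Rb1cc1* stands lowest there, at 45.1 to 68.3 CPM.

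5xFAD mice differed from WT mice in 5 of the 10 genes when the genotype effect was averaged over SPF, GF and ABX conditions. *Map1lc3b*, *Becn1*, *Atg7* and *Sqstm1* were higher and *Rb1cc1* was lower, and the mean changes stayed between 0.832-fold and 1.28-fold. Among all genes tested 25.1% passed the same threshold (adjusted p under 0.05 by edgeR's quasi-likelihood test, adjusted over all genes), 14.3% higher and 10.8% lower. The median log2 change of the 10 genes was 0.02, beside -0.03 over all genes. The 5 calls also held when any of the 28 mice was left out. The marker sums of microglia and of other cell types given above moved with genotype as well, and their part in these calls was not tested. With library size in place of TMM scaling 3 genes were higher and 2 lower, since *Sqstm1* no longer passed and *Atg5* did. Among all genes 37.1% of the calls were then higher. Within single conditions the test called 0 of 10 genes in SPF mice (background 4.57%), 2 in GF mice (15.6%, of which 9.43% rose and 6.2% fell) and 2 in ABX mice (14.4%, of which 9.45% rose and 4.98% fell). In SPF mice 2 genes, *Becn1* and *Atg7*, had an unadjusted p under 0.05, DESeq2 called 0 and limma's voomWithQualityWeights, the method named by the study, called these 2 beside 14.1% of all genes. With library size alone the calls were 1 higher and 1 lower in GF mice and 2 lower in ABX mice.

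**Figure D2:**
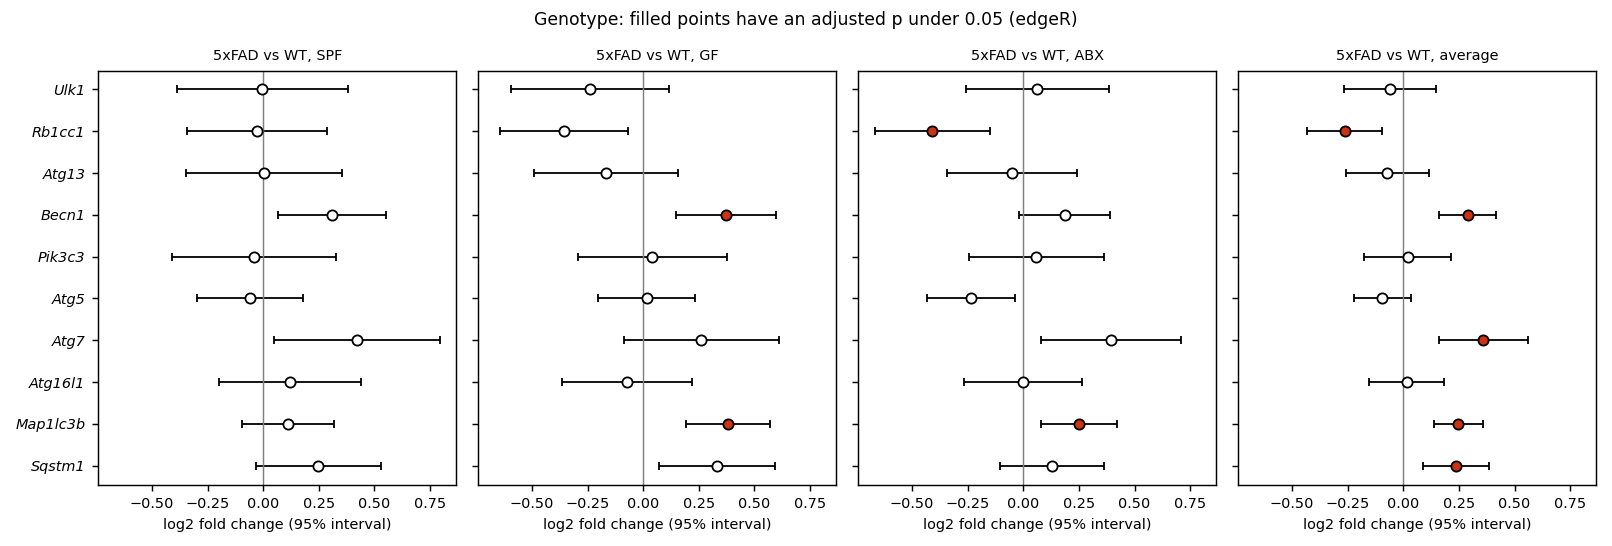
Genotype effect, 5xFAD over WT, as log2 fold change (x axis) with its 95% interval for each gene (y axis), in SPF, GF and ABX mice and averaged over the 3 conditions; filled points have an adjusted p under 0.05 (edgeR). *Map1lc3b* is filled in every panel except SPF, and *Ulk1*, *Atg13*, *Pik3c3*, *Atg5* and *Atg16l1* are filled in none.

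Among 5xFAD mice, GF housing was compared with SPF housing to see how the constitutive lack of microbes bears on these genes. *Map1lc3b* and *Becn1* were higher and *Rb1cc1* was lower in GF 5xFAD mice, which makes 3 of 10 genes against a background of 12.8% (6.97% higher and 5.86% lower). With library size alone *Becn1* did not pass, which left 1 gene higher and 1 lower. ABX 5xFAD mice had less *Map1lc3b* and *Becn1* than GF 5xFAD mice, 2 of 10 genes against a background of 10.6% (4.52% higher and 6.07% lower). With library size alone *Map1lc3b* did not pass there, which left *Becn1*, and 67.9% of the calls among all genes were then higher. These comparisons share the GF 5xFAD mice. ABX and SPF 5xFAD mice differed in 0 of 10 genes (background 0%), with 1 gene, *Rb1cc1*, at an unadjusted p under 0.05, and DESeq2 and voomWithQualityWeights called 0 as well. In WT mice the 3 comparisons called 0 of 10 genes, with a background of 1.62% when GF was set against SPF, 0% when ABX was set against SPF and 6.88% when ABX was set against GF mice. The unadjusted p was under 0.05 for *Becn1* in GF against SPF WT mice, for *Atg7* in ABX against GF WT mice and for no gene in ABX against SPF WT mice. DESeq2 called 0 in all 3, and voomWithQualityWeights called *Becn1* in GF against SPF WT mice, beside 10.7% of all genes.

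**Figure D3:**
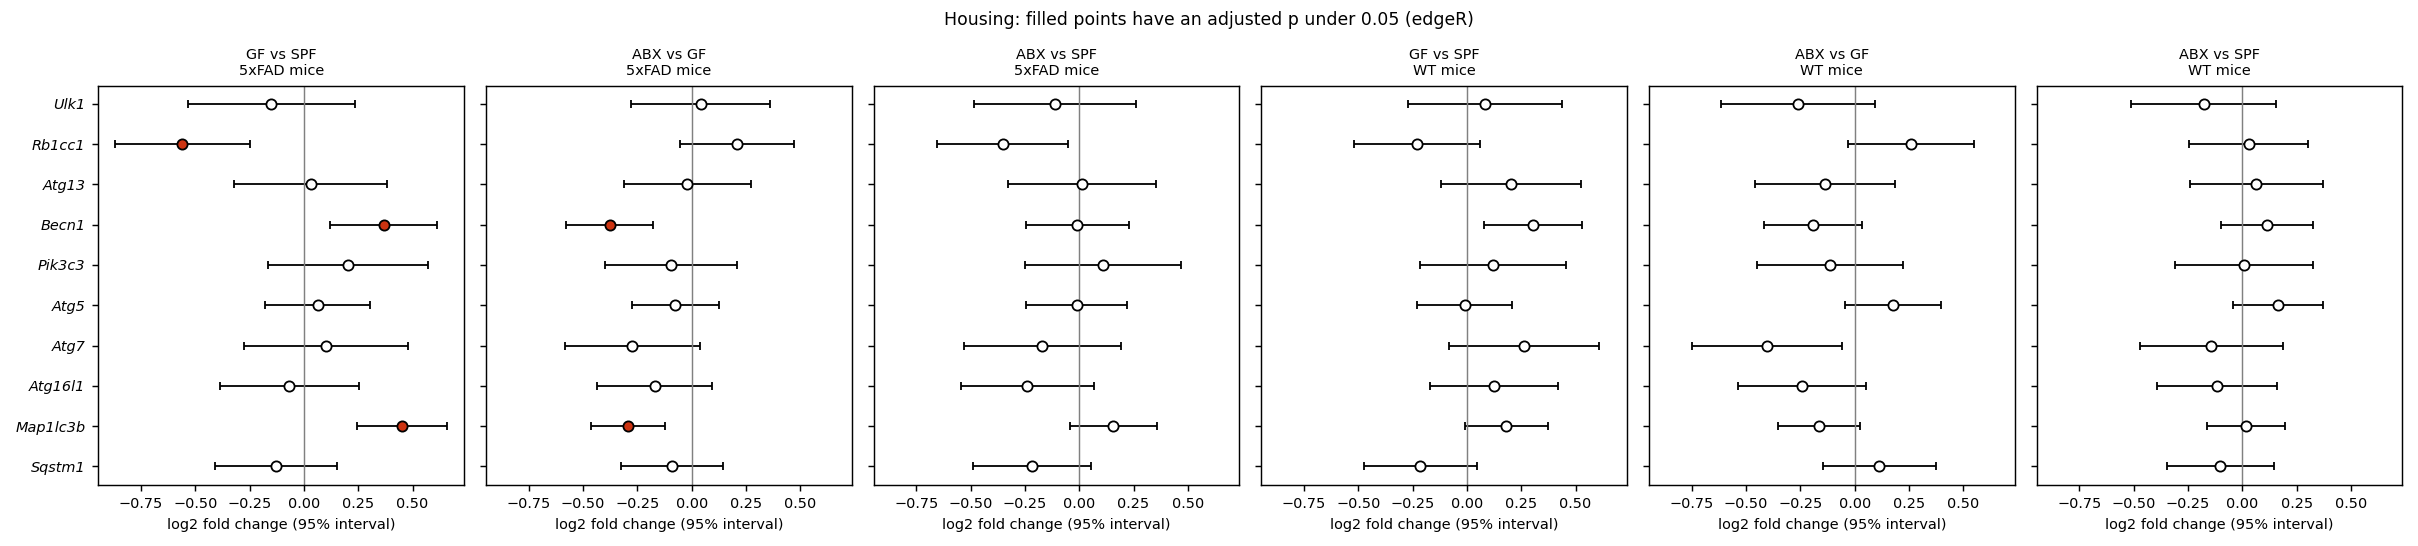
Log2 fold change between housing conditions (x axis) with its 95% interval for each gene (y axis), in 5xFAD mice (left 3 panels) and WT mice (right 3 panels); filled points have an adjusted p under 0.05 (edgeR). Filled points appear in 5xFAD mice only where GF mice are compared, and in no WT panel, but no interaction of genotype and housing passed.

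Whether the genotype effect itself depended on housing was tested by interaction terms. None of the 10 genes passed for GF against SPF mice (background 0%), ABX against SPF mice (0%) or ABX against GF mice (1.76%) with edgeR, DESeq2 or voomWithQualityWeights, and none had an unadjusted p under 0.05 with edgeR. The lowest adjusted p was that of *Atg5* for ABX against GF mice, with a log2 difference of -0.25 and a 95% interval from -0.55 to 0.05 (adjusted p = 0.409, edgeR). The lowest unadjusted p (0.0593) was that of *Map1lc3b* for GF against SPF mice, with 0.27 and an interval from -0.01 to 0.55 (adjusted p = 0.601, edgeR). A call in one housing condition and not in another is therefore no evidence here of a different genotype effect. In an F test over the 6 groups 4 of 10 genes passed, against 33.2% of all genes. These were *Map1lc3b* (adjusted p = 5.4e-05), *Becn1* (0.00015), *Rb1cc1* (0.0025) and *Atg7* (0.014, all edgeR).

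Of the initiation complex only *Rb1cc1* was called, and it was lower in 5xFAD mice on average. *Rb1cc1* (chr1:6206197-6276648 on GRCm38, GENCODE M21) encodes FIP200, the scaffold of the ULK complex. It measured 67.7, 76.7, 85.1, 86.5 and 87.3 CPM in SPF WT mice and 74.6, 75.6 and 87.1 CPM in SPF 5xFAD mice. GF WT mice had 61.4, 65.0, 68.2 and 80.3 CPM, and GF 5xFAD mice 45.1, 47.0, 47.6, 60.4 and 68.3 CPM. The GF 5xFAD mice all lay below the lowest SPF 5xFAD mouse, whereas GF 5xFAD and GF WT mice overlapped. ABX WT mice had 71.1, 73.6, 80.4, 83.6 and 103 CPM. ABX 5xFAD mice had 50.9, 51.0, 56.7, 64.4, 67.2 and 81.7 CPM, with a median of 60.5 CPM. The highest was mouse FAD_ABX_1151, which alone in its group has the numbering style of the SPF 5xFAD mice. The other 5 lay below every ABX WT mouse. The part of numbering style in this was not tested. GF 5xFAD mice had less *Rb1cc1* than SPF 5xFAD mice, at -0.56 ± 0.15 on the log2 scale (SE, adjusted p = 0.0158, edgeR). The 5xFAD genotype effect was -0.41 ± 0.13 in ABX mice (adjusted p = 0.0289), -0.36 ± 0.14 in GF mice (adjusted p = 0.0869) and -0.03 in SPF mice (adjusted p = 0.973), and -0.26 ± 0.08 on average (adjusted p = 0.0165, all edgeR). The antisense gene *4732440D04Rik* covers 558 (3.8%) of the exon bases of *Rb1cc1* and had 5104 reads over the 28 mice, against 39533 of *Rb1cc1*, and reads of both strands cannot be told apart there. *Rb1cc1* is the longest of the 10 transcripts (14690 bases of exons), and the tertile of longest genes had a median log2 change of -0.15 in GF against SPF 5xFAD mice, beside 0.19 in the tertile of shortest genes. With offsets for gene length the change of *Rb1cc1* shrank to -0.36 and did not pass (adjusted p = 0.0737), nor did it pass without mouse FAD_SPF_1144 or FAD_SPF_1148 (adjusted p up to 0.0685). Its call in ABX mice was lost without WT_ABX_911, FAD_ABX_1452, FAD_ABX_1455 or FAD_ABX_1482 (adjusted p up to 0.135).

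*Ulk1* (chr5:110784488-110810097), the kinase of the complex, and *Atg13* (chr2:91674618-91710576), its regulatory subunit, did not pass any comparison. *Ulk1* group means lay between 38.5 ± 9.03 CPM (SD, n = 5) in ABX WT and 46.2 ± 5.37 CPM (SD, n = 4) in GF WT mice. *Atg13* means lay between 41.0 ± 7.91 CPM (SD, n = 5) in SPF WT and 47.2 ± 8.97 CPM (SD, n = 4) in GF WT mice. The ranges of all 6 groups overlapped in both genes. The 95% interval of the average genotype effect on the log2 scale reached from -0.27 to 0.14 for *Ulk1* and from -0.26 to 0.12 for *Atg13*, so a change within these limits could not be told from none.

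*Becn1* (chr11:101285952-101302286), encoding the Beclin 1 subunit of the VPS34 complex, rose in 5xFAD mice. SPF WT mice had 64.6, 67.2, 74.4, 75.1 and 75.4 CPM, all below the 80.4, 83.6 and 101 CPM of SPF 5xFAD mice. GF WT mice had 81.0, 87.4, 87.9 and 96.1 CPM, all below the 101, 104, 110.0, 125 and 129.8 CPM of GF 5xFAD mice. In ABX mice the groups overlapped, with 64.3, 74.4, 76.8, 82.4 and 87.8 CPM in WT mice and 69.1 to 102 CPM, median 89.3 CPM, in 5xFAD mice. Mouse FAD_ABX_1151 had 81.8 CPM. The log2 effect of the 5xFAD genotype was 0.29 ± 0.06 on average (SE, 1.22-fold, adjusted p = 0.00094, edgeR), 0.37 ± 0.11 in GF mice (adjusted p = 0.0198), 0.31 in SPF mice (adjusted p = 0.17) and 0.19 in ABX mice (adjusted p = 0.231). Among 5xFAD mice *Becn1* was higher in GF than in SPF mice by 0.37 ± 0.12 (adjusted p = 0.0427) and lower in ABX than in GF mice, with -0.38 ± 0.10 (adjusted p = 0.0143, all edgeR). The call of GF against SPF 5xFAD mice was lost when any of 10 mice was left out (WT_SPF_926, WT_GF_230, WT_ABX_909, WT_ABX_910, WT_ABX_923, FAD_SPF_1146, FAD_SPF_1148, FAD_GF_182, FAD_GF_184 or FAD_GF_185), with adjusted p up to 0.233. The call in GF mice was lost without mouse WT_GF_231 or FAD_GF_185 (adjusted p up to 0.0719), and also with library size alone or without the low-count filter (up to 0.0988). The ABX against GF call in 5xFAD mice held in all 28 fits and was lost when only these groups were fitted (adjusted p = 0.114). GF WT mice also lay above SPF WT mice without overlap, by 0.30 on the log2 scale, but the test did not pass (adjusted p = 0.14, edgeR). On the opposite strand *Cntd1* covers 43.9% of the exon bases of *Becn1*, and the library kit does not mark strand. *Cntd1* itself had 302 reads over the 28 mice, against 49609 of *Becn1*.

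*Pik3c3*, on chromosome 18, encodes VPS34, the lipid kinase of the same complex. It did not follow *Becn1*: the group means lay between 42.7 ± 1.19 CPM in the 3 SPF 5xFAD mice and 49.2 ± 8.66 CPM (mean ± SD) in the 5 GF 5xFAD mice, with overlap between all groups. No comparison passed, and the 95% interval of the average genotype effect reached from -0.18 to 0.21 on the log2 scale. Whether the changes of *Becn1* and *Pik3c3* differ was not tested.

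Of the conjugation genes only *Atg7* (chr6:114643097-114860614), which encodes the activating enzyme, was called. SPF WT mice had 22.7, 33.8, 34.4, 36.7 and 42.9 CPM, and the 3 SPF 5xFAD mice lay close together above them at 45.5, 45.6 and 45.8 CPM. GF WT mice had 37.7, 38.4, 41.5 and 45.7 CPM and GF 5xFAD mice 42.3, 43.9, 45.2, 52.2 and 61.5 CPM. These GF groups overlapped, as did those of ABX mice, with 23.3, 27.0, 28.3, 36.0 and 39.5 CPM in WT and 31.8 to 51.5 CPM, median 39.7 CPM, in 5xFAD mice. The lowest ABX 5xFAD mouse, at 31.8 CPM, was FAD_ABX_1151. On average the log2 effect of the 5xFAD genotype was 0.36 ± 0.10 (SE, 1.28-fold, adjusted p = 0.00644, edgeR), the largest rise among the 10 genes. By condition it was 0.42 (SPF), 0.26 (GF) and 0.39 (ABX), none of which passed (adjusted p = 0.253, 0.332 and 0.0869, edgeR).

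*Atg5* (chr10:44268358-44364291) and *Atg16l1* (chr1:87755870-87792428), whose products form the complex that positions LC3 on the membrane, did not pass any comparison. *Atg5* means lay between 88.1 ± 8.32 CPM (SD, n = 6) in ABX 5xFAD and 103.8 ± 7.32 CPM (SD, n = 5) in ABX WT mice. The log2 difference between these groups was -0.24 (adjusted p = 0.104, edgeR), and with library size in place of TMM it was -0.31 and passed (adjusted p = 0.0212). *Atg16l1* means lay between 62.5 ± 10.5 CPM (SD, n = 6) in ABX 5xFAD and 74.1 ± 14.0 CPM (SD, n = 4) in GF WT mice. The 95% interval of its average genotype effect was -0.16 to 0.18 on the log2 scale.

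*Map1lc3b* (chr8:121590361-121598760) encodes LC3B, the protein that is conjugated to the autophagosome membrane. It measured 94.7, 109, 109.9, 111 and 114 CPM in SPF WT mice and 114, 115 and 120.1 CPM in SPF 5xFAD mice. GF WT mice had 112, 113, 129 and 135 CPM, whereas the GF 5xFAD mice had 145, 154, 162, 165 and 169 CPM. All 5 GF 5xFAD mice lay above every mouse of the SPF and GF WT groups and of the SPF 5xFAD group. ABX WT mice had 98.2, 100.1, 108, 116 and 123 CPM. ABX 5xFAD mice had 106 (FAD_ABX_1151), 121, 128, 134, 144 and 145 CPM, with a median of 131 CPM. The highest ABX 5xFAD mouse lay just below the lowest GF 5xFAD mouse. The group means were in the order GF 5xFAD (159.1 ± 9.55 CPM, SD, n = 5), ABX 5xFAD (129.7 ± 14.8), GF WT (122 ± 11.8), SPF 5xFAD (116 ± 3.41), ABX WT (109 ± 10.4) and SPF WT (108 ± 7.56). Neighbours below the first lay within their spread.

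The log2 effect of the 5xFAD genotype on *Map1lc3b* was 0.25 ± 0.05 on average (SE, 1.19-fold, adjusted p = 0.00078, edgeR). It was 0.38 ± 0.09 in GF mice (1.30-fold, adjusted p = 0.00451), 0.25 ± 0.08 in ABX mice (1.19-fold, adjusted p = 0.0417) and 0.11 in SPF mice (adjusted p = 0.753). GF 5xFAD mice exceeded SPF 5xFAD mice by 0.45 ± 0.10 (1.37-fold, adjusted p = 0.00507), and ABX 5xFAD mice were lower than GF 5xFAD mice, with -0.29 ± 0.08 (0.816-fold, adjusted p = 0.0223, all edgeR). The average effect, the effect in GF mice and the difference between GF and SPF 5xFAD mice passed in every fit that left out a mouse. The call in ABX mice was lost in 7 of these 28 fits (without WT_ABX_909, WT_ABX_910, WT_ABX_911, FAD_ABX_1453, FAD_ABX_1455, FAD_ABX_1460 or FAD_ABX_1482, adjusted p up to 0.114), with gene length offsets and in 3 other settings. The ABX against GF call in 5xFAD mice was lost in 5 of the 28 fits (without FAD_GF_181, FAD_GF_184, FAD_GF_185, FAD_ABX_1151 or FAD_ABX_1452, adjusted p up to 0.0754), and with library size alone (0.0863), no low-count filter (0.0989) or only the groups compared (0.151). Processed pseudogenes of near-identical sequence (*Gm6055*, *Gm6054*, *Gm5612* and *Gm12727*) had 348, 209, 8 and 4 reads over the 28 mice, against 70604 of *Map1lc3b*. *Zcchc14*, on the opposite strand, shares 58 of its exon bases.

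*Sqstm1* (chr11:50199366-50210827), encoding the cargo receptor p62, was higher in 5xFAD mice on average. SPF WT mice had 215, 219, 247, 263 and 292 CPM, and SPF 5xFAD mice 287, 296 and 297 CPM. GF WT mice had 188, 208, 226 and 230.1 CPM, all below the 234, 253, 253, 299 and 304 CPM of GF 5xFAD mice. ABX WT mice had 206, 231.1, 234, 236 and 246 CPM, within the wide range of ABX 5xFAD mice from 189 to 334 CPM (median 249 CPM). Mouse FAD_ABX_1151 had 291 CPM. On average the log2 effect of the 5xFAD genotype was 0.24 ± 0.07 (SE, 1.18-fold, adjusted p = 0.0168, edgeR). In GF mice it was 0.33 ± 0.13, which did not pass (adjusted p = 0.077), though it did with only these groups fitted (0.0417) or only genes of at least 10 counts in every library (0.0382), and it was 0.25 in SPF and 0.13 in ABX mice (adjusted p = 0.454 and 0.516, edgeR). With library size alone the average was 0.15 and did not pass (adjusted p = 0.104). Unlike *Map1lc3b* and *Becn1*, *Sqstm1* had its highest group mean in SPF 5xFAD mice, with 294 ± 5.28 CPM (SD, n = 3), and its lowest in GF WT mice, with 213 ± 19.1 CPM (SD, n = 4). Its F test over the 6 groups did not pass (adjusted p = 0.0942, edgeR). *Mrnip*, on the opposite strand, covers 17.3% of its exon bases.

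For *Map1lc3b*, *Atg5*, *Sqstm1* and *Ulk1* the tested genes with the most similar pattern were found as those whose log2 ratio to the gene varied least over the 28 mice. Those of *Map1lc3b* were *Fcgr3*, *Rab7* and *C1qc*, with an SD of the log2 ratio of 0.0953, 0.097 and 0.103, where the median over all genes was 0.49. *Atg5* was nearest to *Cdc42*, *Snx5* and *Tmem243* (0.101, 0.112 and 0.117). *Sqstm1* had no gene as close, with *9530068E07Rik*, *Hnrnpab* and *Slc38a1* at 0.165, 0.17 and 0.171, nor had *Ulk1*, with *Extl3*, *Sbf1* and *Fxr2* at 0.193, 0.21 and 0.214. The SD of the log2 level itself was 0.23 for *Map1lc3b*, 0.161 for *Atg5*, 0.224 for *Sqstm1* and 0.263 for *Ulk1*, and a gene that hardly varies is near to any other steady gene by this measure.

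A further 54 autophagy genes in 9 lists, from ATG8 proteins to upstream kinases, were all tested. Averaged over the conditions 11 of these passed in 5xFAD against WT mice, 7 higher and 4 lower, where 25.1% of all genes passed. Their median log2 change was -0.04, beside -0.03 over all genes. *Optn*, encoding another ubiquitin-binding cargo receptor, had the largest rise, with 5.54 ± 0.99 CPM (SD, n = 5) in SPF WT and 11.7 ± 0.503 CPM (n = 3) in SPF 5xFAD mice, 6.41 ± 2.55 CPM (n = 4) in GF WT and 20.02 ± 4.46 CPM (n = 5) in GF 5xFAD mice, and 6.41 ± 1.61 (n = 5) in ABX WT and 14.8 ± 5.2 CPM (n = 6) in ABX 5xFAD mice. It was the only gene of either list called in each of the 3 conditions, with log2 fold changes of 1.08 (SPF), 1.64 (GF) and 1.20 (ABX) (adjusted p = 0.0149, 4.6e-05 and 0.00064, edgeR). The SPF call was lost without mouse FAD_SPF_1144 (adjusted p = 0.067). The other genes that rose were *Map1lc3a* (0.37) and *Gabarap* (0.29), relatives of LC3B, *Nrbf2* (0.33), a subunit of the VPS34 complex, the mitophagy receptor *Bnip3* (0.31), and *Vps41* (0.26) and *Rab7* (0.23), which act in fusion with lysosomes. *Prkaa1* (-0.28), a catalytic subunit of AMP-activated kinase, the mitophagy receptor *Bnip3l* (-0.24), the conjugation enzyme *Atg3* (-0.19) and the transcription factor *Tfe3* (-0.16) were lower. Of these 11 average calls 8 passed under every alternative. *Nrbf2* was lost with library size alone, without the low-count filter, with voomWithQualityWeights and without FAD_SPF_1144 or FAD_SPF_1146 (adjusted p up to 0.0914), *Bnip3* with library size alone, without the filter and without FAD_SPF_1144 (up to 0.0717), and *Tfe3* without the filter and without WT_SPF_925, FAD_SPF_1144, FAD_SPF_1148 or FAD_GF_181 (up to 0.0772). By list, the calls were 2 of 4 ATG8 relatives, 3 of 9 cargo receptors, 2 of 8 genes of fusion with lysosomes, 1 of 6 for the VPS34 complexes, 1 of 8 for conjugation, 1 of 3 transcription factors and 1 of 7 upstream kinases. None of the 5 initiation genes or the 4 effectors of the VPS34 lipid product was called on average.

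Of the ATG8 family, 3 of 4 further members rose in GF 5xFAD against GF WT mice, where 9.43% of all genes rose. The log2 fold changes were 0.72 ± 0.12 for *Gabarap* (SE, adjusted p = 9.7e-05), 0.72 ± 0.15 for *Map1lc3a* (adjusted p = 0.00105) and 0.38 ± 0.13 for *Gabarapl1* (adjusted p = 0.0484, all edgeR). *Gabarap* and *Map1lc3a* passed in all 28 fits that left out a mouse, but *Gabarapl1* in only 9 of them and in 4 of the 9 other settings (adjusted p up to 0.189). In SPF and in ABX mice 0 of the 4 members were called (0 also at an unadjusted p under 0.05, edgeR), with a median log2 change of 0.11 and -0.05. For the interaction of genotype and housing in GF against SPF mice, 0 of the 54 genes passed (background 0%, edgeR). The calls in GF mice are therefore no evidence of a genotype effect different from that in SPF mice. In GF mice none of the initiation, VPS34 complex, lipid effector or conjugation genes outside the core set was called (2, 1, 0 and 1 of them at an unadjusted p under 0.05, edgeR), while 2 of 9 cargo receptors and 1 of 8 fusion genes rose, 1 of 3 transcription factors fell, and 1 of 7 upstream kinases rose and 2 fell. *Gabarap* reached 333 ± 44.0 CPM (SD, n = 5) in GF 5xFAD mice and lay between 202 and 245 CPM on average in the other 5 groups. *Map1lc3a* reached 62.2 ± 13.0 CPM (SD, n = 5) in GF 5xFAD mice, against 36.2 to 42.7 CPM in the other groups. In GF against SPF 5xFAD mice both were higher again, with log2 fold changes of 0.49 for *Gabarap* and 0.54 for *Map1lc3a*, and in ABX against GF 5xFAD mice both were lower, with -0.44 and -0.60. The GF against SPF call was lost for *Map1lc3a* without FAD_SPF_1144, FAD_SPF_1146, FAD_SPF_1148, FAD_GF_181 or FAD_GF_182 and in 3 other settings (adjusted p up to 0.132, edgeR), and for *Gabarap* without FAD_SPF_1146, FAD_SPF_1148 or FAD_GF_185 and with library size alone (up to 0.127). With only the groups compared the ABX against GF calls of *Gabarap*, *Map1lc3a* and *Rab7* were lost (up to 0.0944). *Rab7*, the GTPase of late endosomes, had 215 ± 16.3 CPM (SD, n = 5) in GF 5xFAD mice and means of 154 to 172 CPM elsewhere, and its log2 fold changes in these 3 comparisons were 0.45, 0.39 and -0.32. The genotype effect of *Gabarap* differed between ABX and GF mice, with an interaction of -0.66 ± 0.17 (SE, adjusted p = 0.0398, edgeR), which passed in 13 of the 28 fits that left out a mouse (adjusted p up to 0.0929).

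**Figure D4:**
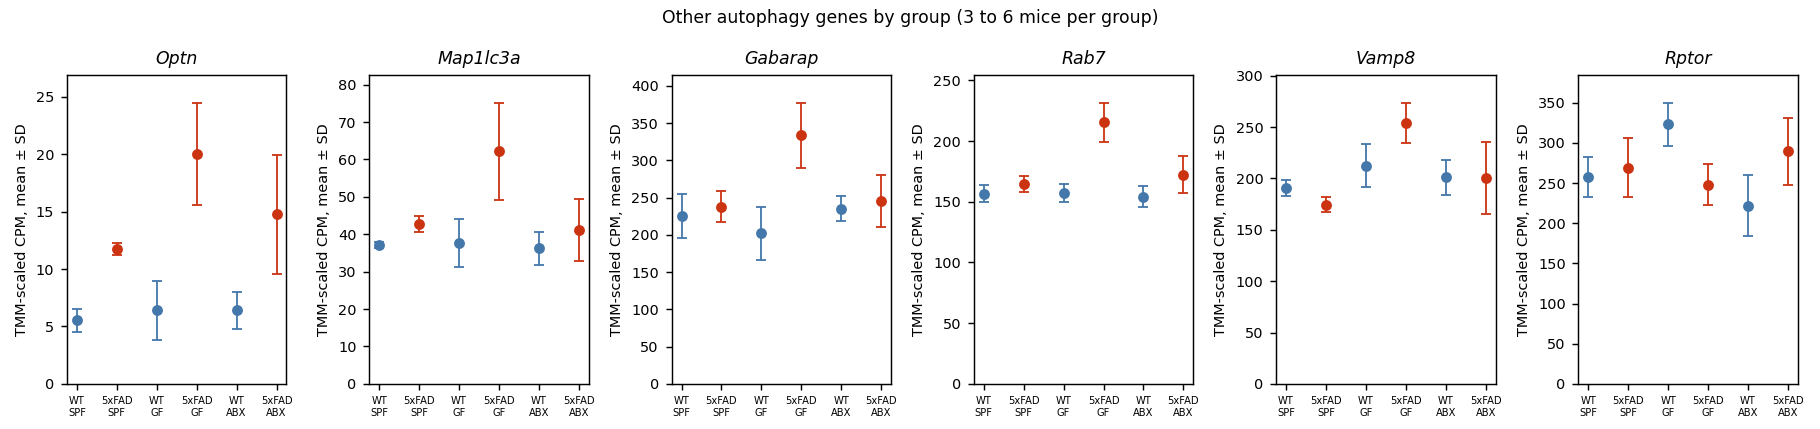
TMM-scaled CPM (y axis, from 0) of 6 other autophagy genes in the 6 groups (x axis; blue, WT; red, 5xFAD), as mean ± SD of 3 to 6 mice. *Map1lc3a*, *Gabarap*, *Rab7* and *Vamp8* stand highest in GF 5xFAD mice, *Optn* is higher in all 5xFAD groups, and *Rptor* is highest in GF WT mice with 323 CPM.

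In single comparisons the counts for the 54 genes were 1 higher and 0 lower in SPF 5xFAD against WT mice, 7 and 3 in GF mice, and 5 and 2 in ABX mice. In 5xFAD mice they were 5 and 2 for GF against SPF and 0 and 5 for ABX against GF. For ABX against SPF 5xFAD mice edgeR called 0, beside 0% of all genes, with 4 at an unadjusted p under 0.05. DESeq2 called 0 and voomWithQualityWeights 1 there, beside 0.0533% and 0.876% of all genes. The shares called among all genes were 4.57%, 15.6% and 14.4% for the genotype in SPF, GF and ABX mice, and 12.8% for GF against SPF and 10.6% for ABX against GF 5xFAD mice, so these counts lay near the background or, in SPF mice, below it. Leaving out single mice gave 4 to 11 calls for the genotype in GF mice (lowest without WT_GF_199), 2 to 10 in ABX mice (lowest without WT_ABX_911), 3 to 8 for GF against SPF 5xFAD mice (lowest without FAD_SPF_1146 or FAD_SPF_1148) and 3 to 11 for ABX against GF 5xFAD mice (lowest without FAD_GF_181, FAD_ABX_1151 or FAD_ABX_1452, highest without FAD_ABX_1482). A fit of only the groups compared gave 0 calls for ABX against GF 5xFAD mice, where 1.89% of all genes were then called, and 2 for the genotype in ABX mice, where the share was 10%. With voomWithQualityWeights 16 were called for GF against SPF 5xFAD mice, beside 25.3% of all genes. *Vamp8* rose (log2 fold change 0.54) and *Ulk2*, the close relative of *Ulk1*, fell in GF against SPF 5xFAD mice, with -0.76 ± 0.15 (SE, adjusted p = 0.00276, edgeR), from 307 ± 20.7 CPM (SD, n = 3) to 181.1 ± 13.1 CPM (SD, n = 5). *Rptor*, a subunit of the mTOR complex that holds ULK1 inactive when nutrients are plentiful, went opposite ways: 5xFAD mice were lower than WT mice under GF conditions (-0.38, adjusted p = 0.0269) and higher under ABX conditions (0.38, adjusted p = 0.0159), with an interaction of 0.77 ± 0.16 (SE, adjusted p = 0.0157, all edgeR). The interaction of *Rptor* passed under every alternative, but its call in GF mice was lost without WT_GF_199, FAD_GF_181, FAD_GF_182 or FAD_GF_184 and with gene length offsets (adjusted p up to 0.102), and that in ABX mice without WT_ABX_909, WT_ABX_911 or FAD_ABX_1460 and with only the groups compared (up to 0.0629). *Rheb*, the GTPase that activates the mTOR complex, was higher in 5xFAD than in WT mice under GF conditions (0.30, adjusted p = 0.0413) and lower in ABX than in GF 5xFAD mice (-0.27, adjusted p = 0.0488, both edgeR), calls that held in 18 and 7 of the 28 fits that left out a mouse. The kinase gene *Mtor* and the transcription factor genes *Tfeb* and *Mitf* passed in no comparison, with average genotype effects of 0.12, -0.03 and 0.19 on the log2 scale. WT mice had 1 call in GF against SPF (*Snap29*, -0.69, adjusted p = 0.0434, edgeR) and 2 in ABX against GF mice (*Atg2a*, -0.88, and *Rptor*, -0.54). These counts stand beside 1.62% and 6.88% of all genes. The *Snap29* call was lost in 9 of the 28 fits that left out a mouse (WT_SPF_912, WT_SPF_926, WT_SPF_928, WT_SPF_936, any GF WT mouse or WT_ABX_910, adjusted p up to 0.161).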

How the data were processed

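RNA of CD11b+CD45low, dump-negative hippocampal microglia sorted from 28 mice was amplified with a SMARTer low-input kit, made into Nextera XT libraries, which do not mark strand, and sequenced as single reads of 50 bases. Per the paper's methods and the submitters' processing notes, reads were aligned by the authors with STAR 2.7.2 and counted with featureCounts 1.6.2 on GENCODE M21, and the deposited table holds these counts for each gene as raw, unscaled numbers. The paper names the mouse genome GRCm38, whereas the processing notes name GRCh38.p12, a human build. GRCm38, on which GENCODE M21 rests, was taken here. The processing notes also name CASAVA 1.8.2, FastQC 0.11.8, limma 3.40.6 and edgeR 3.26.7. The 92 spike-in entries held at most 12 reads in a library and were left out. Nothing says that mice of a group came from separate litters, so p-values measure the spread between these mice.

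Counts were tested in R 4.3.3 with the quasi-likelihood test of edgeR 4.0.16, after filterByExpr (minimum count 10, minimum total 15) and TMM scaling, in 1 model with a term for each of the 6 groups. P-values were adjusted by the Benjamini-Hochberg method over the 15298 genes that were tested, at a threshold of 0.05. CPM values of the genes refer to TMM-scaled library sizes, those of cell type markers to library totals. CPM per kb uses the deposited exon lengths, which equal those of GENCODE M21 for all 10 genes. Named genes are the 10 core genes, the listed autophagy genes called in an average or pairwise comparison, the 3 genes most alike each of 4 core genes and 4 microglial markers. The genes most alike *Becn1*, which the rule also covered, and 1 listed microglial marker are not reported here. *Mtor*, *Tfeb* and *Mitf* were named after their values were seen. The genes, lists and tests were chosen with earlier results of these data known. Alternatives were RLE factors, library size alone, at least 10 counts in every library, no low-count filter, DESeq2 1.42.0, limma 3.58.1 with voomWithQualityWeights, gene length offsets, only the groups compared, 26 mice without FAD_ABX_1151 and FAD_ABX_1482, and each mouse left out. The procedure was tested on simulated data. Shared exon bases were read from GENCODE M21 and near-identical copies (at least 96% over 50 bases) from its transcripts. Of the table's symbols 46484 are GENCODE M21 names. Figures were drawn with matplotlib 3.10.9.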

Additional observations from a re-analysis of the deposited data

Results flagged for a closer look

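In 2 of the 50 groups of 4 to 6 mice tested over the 10 genes a single mouse lay apart from the others of its group, about as many as the 2.5 that chance gives at 1 in 20. *Atg5* was 90.9 CPM in mouse WT_ABX_923, where the other 4 ABX WT mice had 105 to 109 CPM. *Map1lc3b* was 94.7 CPM in mouse WT_SPF_936, where the other 4 SPF WT mice had 109 to 114 CPM.

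The genotype effect of 2 other autophagy genes differed between ABX and GF mice by the test of the interaction itself. The GF effect lies within a single numbering style and the ABX effect does not, so housing and style cannot be told apart here. *Gabarap* had a log2 difference of -0.658 between the ABX and GF genotype effects (adjusted p = 0.0398, edgeR), and *Rptor* one of 0.766 (adjusted p = 0.0157, edgeR). These are 2 of 54 genes, where 1.76% of all genes passed. Leaving out single mice gave 1 to 4 such calls among the 54, and *Rptor* passed in all 28 fits but *Gabarap* in 13. *Gabarap* did not pass with library size alone, without the low-count filter or with only the groups compared. Among the 10 core genes none passed.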

How the results depend on the processing

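Each of the 10 core genes was recomputed in 13 comparisons under every alternative, except that a fit of only the groups compared left out the average genotype effect, and no called change reversed its direction; changes of sign in values that passed in neither fit were not counted. RLE factors, DESeq2 and leaving out mice FAD_ABX_1151 and FAD_ABX_1482 together kept all 130 results on their side of the threshold. Leaving out these mice is no check on neutrophil reads. The neutrophil marker sum of FAD_ABX_1482 was only 0.257 CPM, and the SPF 5xFAD libraries with such reads stayed in. Library size alone moved 5 results out of and 3 into the calls, and shifted the median log2 change of all genes by -0.12 for 5xFAD against WT in GF mice, so that changes near that size depend on the scaling. The share of calls that were higher among all genes was then 37.1% on average over the conditions. The cause of the changes below was not tested.

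The number of core genes called changed from 0 to 2 in 5xFAD against WT SPF mice and from 0 to 1 in GF against SPF WT mice with voomWithQualityWeights, which called 2154 and 1631 of all genes there, against 699 and 248 with edgeR. With only the groups compared it changed to 1 in GF against SPF WT mice and to 0 in 5xFAD against WT ABX mice and in ABX against GF 5xFAD mice, from 2 each. Without the low-count filter it fell to 1 in 5xFAD against WT GF mice, in 5xFAD against WT ABX mice and in ABX against GF 5xFAD mice. *Becn1* was also lost in GF against SPF 5xFAD mice without the filter and with only the groups compared, and *Sqstm1* was gained in GF mice with only the groups compared. Gene length offsets left 1 in 5xFAD against WT ABX mice, and library size alone left 1 in ABX against GF 5xFAD mice. Leaving out each mouse gave 1 to 3 calls in GF mice, 0 to 3 in ABX mice, 1 to 3 for GF against SPF 5xFAD mice and 1 to 2 for ABX against GF 5xFAD mice. The 5 average genotype calls held in all 28 of these fits, and the count of other autophagy genes called on average, 11 as reported, was 9 to 13 in them and 8 to 15 over all alternatives. No paired analysis was possible because the groups share no replicate numbers. The 10 genes had at least 407 reads in every library, and the part of sequencing depth in the calls was not tested.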
